A study of Mus musculus with 6 samples.

Results

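The genes described here are a set of 10 for undifferentiated spermatogonia and germline identity: Zbtb16, Sall4, Pou5f1, Sox3, Utf1, Lin28a, Dazl, Nanos3, Dppa4 and Prdm14. They were taken by symbol from a deposited table of 22564 protein-coding genes, and each of the 10 matched exactly 1 line. The study immunoprecipitated the RNA-binding protein IGF2BP1 from cultured mouse germ stem cells and sequenced the RNA that came with it (RNA immunoprecipitation sequencing, RIP-seq). There were 6 libraries in 3 groups of 2, namely IGF2BP1 RIP (antibody against IGF2BP1), IgG RIP (control antibody) and input (RNA not pulled down). All 6 came from cells grown in MEM-alpha/StemPro-34 medium with 10 ng/ml of GDNF and 10 ng/ml of FGF2, and no genotype, strain, age or treatment beyond this is named in the labels. The labels call the cells a line of germ stem cells and do not say that replicates came from separate cultures, so a p-value here speaks of the spread among these libraries alone, which may be technical.

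Spermatogonial stem cells lie at the base of the seminiferous tubule and either renew themselves or enter differentiation, and GDNF is the signal that keeps them undifferentiated in culture. The genes fall into 3 kinds by role. Zbtb16, Sall4, Pou5f1 and Sox3 encode transcription factors, and Lin28a, Dazl and Nanos3 encode RNA-binding proteins that act on translation and stability of other transcripts. Utf1, Dppa4 and Prdm14 encode chromatin-associated proteins known from pluripotent and germ cells. IGF2BP1 is itself an RNA-binding protein that is known to bind many mRNAs and to influence their stability, localisation and translation. Each level below is a share of a library: how much RNA each antibody pulled down was not compared, and fewer cells of a type and less RNA per cell cannot be told apart.

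Levels are given as CPM, the fragments of a gene relative to the library total, after TMM scaling between libraries. Libraries held from 1639251 to 2836942 fragments on protein-coding genes. The IgG RIP libraries differed from each other more than those of the other groups: the biological coefficient of variation within a group was 7.76% in IGF2BP1 RIP, 50.4% in IgG RIP and 6.76% in input. The 12 germ cell markers examined were all present, with summed levels of 3644 and 3751 CPM for IGF2BP1 RIP, 3092 and 2988 CPM for IgG RIP, with 3584 and 3445 CPM for input. The 12 included Dazl, which is 1 of the 10 genes described here. Most of the others, Ret and Etv5 among them, are also in the list of undifferentiated spermatogonia used below. The marker sum and that list are therefore not independent. Dazl alone had 803 and 880.3 CPM for IGF2BP1 RIP, 794 and 662 CPM for IgG RIP, with 1187 and 1129 CPM for input. Markers of other cell types were detected as well. The sum of 12 fibroblast or feeder markers was 4556 and 4366 CPM for IGF2BP1 RIP, 4252 and 4825 CPM for IgG RIP, with 4339 and 4227 CPM for input. For 10 macrophage markers the sum was 3485 and 3359 CPM for IGF2BP1 RIP, 2958 and 3491 CPM for IgG RIP, with 3600.0 and 3577 CPM for input. Sertoli markers summed to at most 52.3 CPM in any library and Leydig markers to at most 5.82 CPM, and Amh, Cldn11, Fshr, Cyp11a1 and Cyp17a1 were at 0 in every library. Markers of differentiating and meiotic germ cells summed to 359.6 and 428 CPM for IGF2BP1 RIP, 333 and 446 CPM for IgG RIP, with 768 and 777 CPM for input. The part of other cells in the results below was not tested.

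Of the 10 genes, 8 had enough fragments for a test and 2, Utf1 and Prdm14, did not. None of the 8 was called different between IGF2BP1 RIP and IgG RIP (edgeR quasi-likelihood test, adjusted p under 0.05, all 6 libraries in 1 model), where 7.07% of all 12053 tested genes were called, 3.29% higher and 3.78% lower. At an unadjusted p under 0.05 the same test passed 2 of the 8, Lin28a and Dppa4, against 25.3% of all tested genes. DESeq2 called 0 of the 8, and 779 of the 9536 genes to which it gave an adjusted p. Against input, 1 of the 8 was higher in IGF2BP1 RIP (Sall4) and 1 lower (Dazl), where 5.97% of all tested genes were called, 2.21% higher and 3.76% lower. The same 2 genes were called in IgG RIP against input in the same directions, where 9.09% of all tested genes were called, 4.19% higher and 4.9% lower. Both comparisons with input share the input libraries, so they are not independent of each other. The median log2 fold change of the 8 genes was 0.25 in IGF2BP1 RIP against IgG RIP, 0.26 in IGF2BP1 RIP against input and -0.07 in IgG RIP against input, beside medians over all tested genes of -0.01, 0.0012 and -0.0024.

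**Figure D1:**
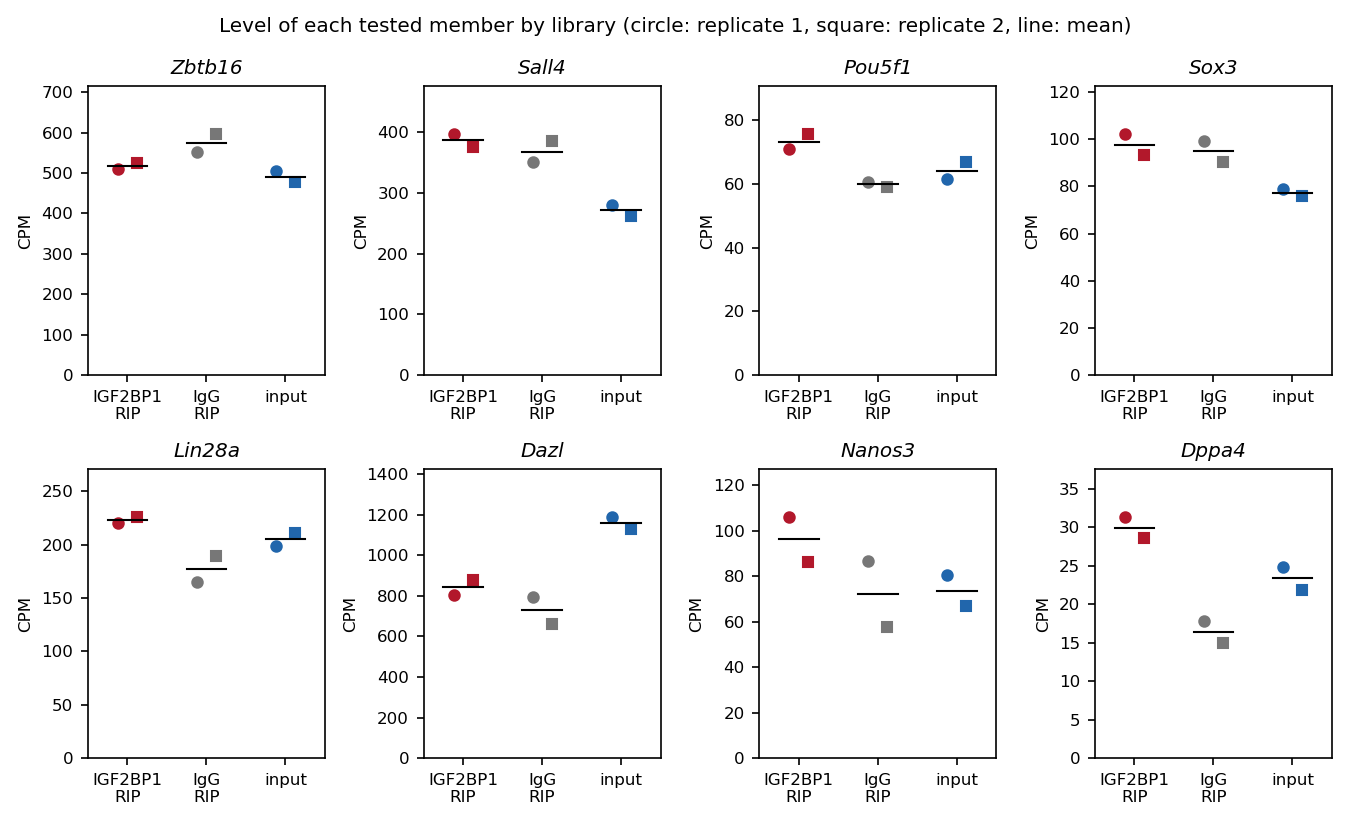
Level in CPM (vertical axis, from 0, a scale for each gene) of the 8 tested genes in the 2 libraries of IGF2BP1 RIP, IgG RIP and input, with circles for replicate 1, squares for replicate 2 and a line at the mean. Sall4 lies above input in all 4 pull-down libraries and Dazl below it, and the points of IGF2BP1 RIP and IgG RIP lie close together or overlap for Sall4 and Sox3.

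Sall4 encodes a zinc finger transcription factor of germ and pluripotent cells (ENSMUSG00000027547, GRCm38 chromosome 2, 168748332 to 168768108, minus strand). Its level was 396 and 376 CPM for IGF2BP1 RIP, 350.0 and 385 CPM for IgG RIP, with 280.3 and 262 CPM for input. All 4 pull-down libraries stood above both input libraries, and the IGF2BP1 RIP and IgG RIP libraries overlapped. The means were 386 ± 14.5 CPM in IGF2BP1 RIP, 368 ± 24.8 in IgG RIP and 271 ± 13.1 in input (SD, n = 2 each). The log2 fold change against input was 0.51 ± 0.10 (SE) in IGF2BP1 RIP (edgeR adjusted p = 0.0260) and 0.44 ± 0.10 in IgG RIP (edgeR adjusted p = 0.0339). Between IGF2BP1 RIP and IgG RIP it was 0.07 ± 0.09 (edgeR adjusted p = 0.693). The call in IGF2BP1 RIP stood in a model without the IgG libraries (edgeR adjusted p = 8.97e-06), and leaving out either IGF2BP1 or either input library ended it (edgeR adjusted p between 0.177 and 0.288). The call in IgG RIP against input was lost in a model of those 2 groups alone (edgeR adjusted p = 0.0979; the alternatives spanned 6.73e-05 to 0.285).

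Zbtb16, the zinc finger factor required to maintain spermatogonial stem cells, was the second most abundant of the 10 by fragments (ENSMUSG00000066687, GRCm38 chromosome 9, 48654311 to 48835945, minus strand). It stood at 509 and 525 CPM for IGF2BP1 RIP, 551 and 596 CPM for IgG RIP, with 504 and 477 CPM for input. Here the IgG RIP libraries were the highest, and the groups did not overlap, but they lay close together. The log2 fold change was -0.15 ± 0.08 in IGF2BP1 RIP against IgG RIP (edgeR adjusted p = 0.310), 0.08 ± 0.08 in IGF2BP1 RIP against input (0.689) and 0.22 ± 0.08 in IgG RIP against input (0.137). Without IgG replicate 1 the first difference passed at -0.20 (edgeR adjusted p = 0.0363; the alternatives reached 0.983).

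Sox3, a transcription factor that spermatogonia need to go on to differentiation, was measured at 102 and 93.2 CPM for IGF2BP1 RIP, 99.3 and 90.5 CPM for IgG RIP, with 78.8 and 75.8 CPM for input (ENSMUSG00000045179, GRCm38 chromosome X, 60891370 to 60893430, minus strand). As for Sall4, all pull-down libraries were above both input libraries and the 2 kinds of pull-down overlapped. The log2 fold change was 0.04 ± 0.15 in IGF2BP1 RIP against IgG RIP, 0.34 ± 0.15 in IGF2BP1 RIP against input and 0.30 ± 0.16 in IgG RIP against input, and none was called (edgeR adjusted p = 0.894, 0.278 and 0.276). The difference between IGF2BP1 RIP and input passed in a model of these groups alone (edgeR adjusted p = 0.0351; the alternatives spanned 0.00779 to 0.835).

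Pou5f1 encodes the POU-domain transcription factor of pluripotent and early germ cells (ENSMUSG00000024406, GRCm38 chromosome 17, 35506018 to 35510776, plus strand). It had 70.8 and 75.6 CPM for IGF2BP1 RIP, 60.5 and 59.1 CPM for IgG RIP, with 61.4 and 66.9 CPM for input. Both IGF2BP1 RIP libraries were above all 4 others, by a small margin. The log2 fold change of 0.29 ± 0.17 against IgG RIP and of 0.19 ± 0.17 against input was not called (edgeR adjusted p = 0.341 and 0.626), nor was that of -0.10 ± 0.18 in IgG RIP against input (edgeR adjusted p = 0.765). Its sequence has close copies elsewhere in the genome that can share reads with it, so the assignment of its fragments is uncertain.

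Among the RNA-binding proteins, Dazl had the most fragments of all 10 genes. It encodes a germ cell protein that binds 3′ untranslated regions of other mRNAs and promotes their translation (ENSMUSG00000010592, GRCm38 chromosome 17, 50279394 to 50293599, minus strand). Its level was 803 and 880.3 CPM for IGF2BP1 RIP, 794 and 662 CPM for IgG RIP, with 1187 and 1129 CPM for input. Every pull-down library was below both input libraries, and both IGF2BP1 RIP libraries were above those of IgG RIP. Means were 842 ± 54.6 CPM in IGF2BP1 RIP, 728 ± 93.3 in IgG RIP and 1158 ± 41.1 in input (SD, n = 2 each). Relative to input, Dazl fell by 0.46 ± 0.10 on the log2 scale in IGF2BP1 RIP (edgeR adjusted p = 0.0441) and fell by 0.67 ± 0.10 in IgG RIP (edgeR adjusted p = 0.0117). The call in IgG RIP was lost without either input library (edgeR adjusted p = 0.160 and 0.150) and stood at 0.0479 in a model of IgG RIP and input alone. The 2 pull-downs differed by 0.21 ± 0.10 on the log2 scale (edgeR adjusted p = 0.251).

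The Dazl call in IGF2BP1 RIP against input lay near the threshold. Without the IgG libraries in the model it was far below (edgeR adjusted p = 2.20e-06), and it was lost when any 1 of the other 4 libraries was left out (edgeR adjusted p between 0.206 and 0.395). Without IgG replicate 1 the difference between IGF2BP1 RIP and IgG RIP was 0.35 and passed (edgeR adjusted p = 8.22e-04; the alternatives reached 0.740).

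Lin28a, which encodes an RNA-binding protein that blocks maturation of the let-7 family of microRNAs, was measured at 220.2 and 226 CPM for IGF2BP1 RIP, 165 and 189 CPM for IgG RIP, with 199 and 211 CPM for input (ENSMUSG00000050966, GRCm38 chromosome 4, 134003330 to 134019869, minus strand). The 3 groups did not overlap, with IGF2BP1 RIP highest and IgG RIP lowest. On the log2 scale IGF2BP1 RIP stood 0.33 ± 0.11 above IgG RIP (edgeR adjusted p = 0.118) and 0.12 ± 0.11 above input (edgeR adjusted p = 0.626), while IgG RIP against input was -0.21 ± 0.11 (edgeR adjusted p = 0.287). The difference from IgG RIP passed without IgG replicate 1 (0.24, edgeR adjusted p = 0.0437) and without IgG replicate 2 (0.43, edgeR adjusted p = 0.00114), where the remaining IgG library is assumed to vary like the other groups.

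Nanos3 encodes an RNA-binding protein that primordial germ cells need to survive (ENSMUSG00000056155, GRCm38 chromosome 8, 84173733 to 84176552, minus strand). It stood at 106 and 86.5 CPM for IGF2BP1 RIP, 86.9 and 57.6 CPM for IgG RIP, with 80.6 and 66.9 CPM for input. In every group its 2 libraries differed more than those of any other tested gene of the set, by 0.29 (log2) in IGF2BP1 RIP, 0.59 in IgG RIP and 0.27 in input. The libraries of IGF2BP1 RIP and IgG RIP overlapped. None of its differences was called, at 0.41 ± 0.24 in IGF2BP1 RIP against IgG RIP, 0.38 ± 0.24 in IGF2BP1 RIP against input and -0.03 ± 0.24 in IgG RIP against input (edgeR adjusted p = 0.328, 0.448 and 0.956). The first ran from 0.15 without IgG replicate 2 to 0.74 without IgG replicate 1, where it passed (edgeR adjusted p = 0.00107). The second passed in a model of those 2 groups alone (edgeR adjusted p = 0.0313; the alternatives spanned 0.0193 to 0.936).

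Of the chromatin-associated genes, Dppa4 showed the largest fold difference between the pull-downs among the 8 tested (ENSMUSG00000058550, GRCm38 chromosome 16, 48283735 to 48294292, plus strand). Its level was 31.3 and 28.6 CPM for IGF2BP1 RIP, 17.8 and 15.0 CPM for IgG RIP, with 24.8 and 21.9 CPM for input. These rest on few fragments, 88 and 81 for IGF2BP1 RIP, 46 and 40 for IgG RIP, with 40 and 37 for input. The groups did not overlap, with input between IGF2BP1 RIP and IgG RIP. The log2 fold change was 0.87 ± 0.30 in IGF2BP1 RIP against IgG RIP (edgeR adjusted p = 0.127), and 21.0% of all tested genes had a larger one in either direction. It was 0.36 ± 0.30 in IGF2BP1 RIP against input (edgeR adjusted p = 0.580) and -0.51 ± 0.31 in IgG RIP against input (edgeR adjusted p = 0.337). The first difference passed without either IgG library, at 1.00 without replicate 1 (edgeR adjusted p = 0.00568) and 0.74 without replicate 2 (0.0282), and the alternatives reached an adjusted p of 0.558.

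Utf1, a chromatin-associated marker of a subset of undifferentiated spermatogonia, was at the limit of detection (ENSMUSG00000047751, GRCm38 chromosome 7, 139943789 to 139945112, plus strand). It had 7 and 5 fragments for IGF2BP1 RIP, 4 and 0 for IgG RIP, with 2 and 1 for input. The sums of 12, 4 and 3 fragments have exact Poisson 95% intervals of 6.20 to 21.0 in IGF2BP1 RIP, 1.09 to 10.2 in IgG RIP and 0.619 to 8.77 in input, which overlap and cover counting error only. These sums are not scaled for depth, which was highest in IGF2BP1 RIP and lowest in input. Prdm14, a regulator of primordial germ cell specification, had 1 and 0 fragments for IGF2BP1 RIP, 0 and 0 for IgG RIP, with 0 and 1 for input (ENSMUSG00000042414, GRCm38 chromosome 1, 13113457 to 13127163, minus strand). By an upper 95% Poisson limit alone, unlike the intervals above, a count of 0 allows up to about 3 fragments. This is 1.06 CPM in the deepest library and 1.86 CPM in the shallowest. With no filter on low counts both genes were tested, and edgeR called neither in any comparison. At this depth the counts cannot decide whether the groups differ.

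**Figure D2:**
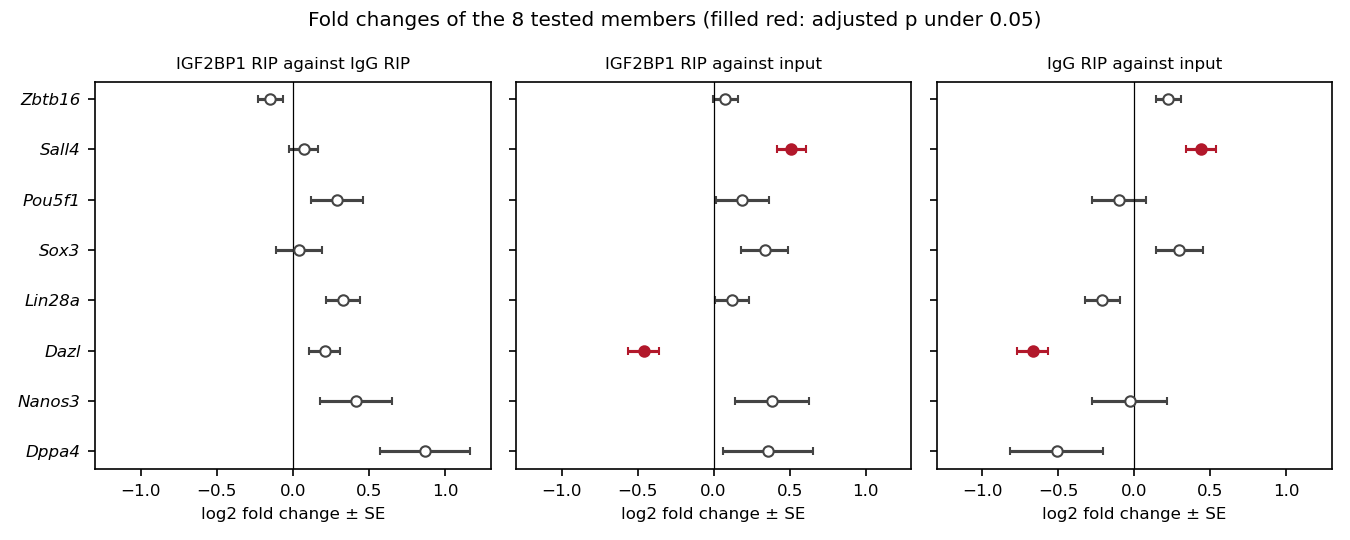
Log2 fold change with its SE (horizontal axis) of the 8 tested genes in the 3 comparisons, with filled red points for an adjusted p under 0.05 in edgeR's quasi-likelihood test on all 6 libraries. No gene is called in IGF2BP1 RIP against IgG RIP, and Sall4 (0.51 and 0.44) and Dazl (-0.46 and -0.67) are called in both comparisons with input.

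The libraries of IGF2BP1 RIP lay wholly above those of IgG RIP for 4 of the 8 genes (Pou5f1, Lin28a, Dazl and Dppa4) and wholly below for 1 (Zbtb16), where 52% of all tested genes did not overlap, 27.4% wholly above and 24.7% wholly below. Against input, 7 of the 8 lay wholly above and 1, Dazl, wholly below, where the share of all tested genes was 66.8%, with 33.5% above and 33.4% below. In IgG RIP against input 3 lay wholly above and 4 wholly below, where the share of all tested genes was 53.8%, with 25.3% above and 28.5% below. The libraries of 3 of the 8 (Pou5f1, Lin28a and Dppa4) lay wholly above both control groups, where 13.9% of all tested genes did, and none of these 3 was called against either.

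The spread of the IgG RIP libraries bears on every count, so the model was refitted with fewer libraries. In a model of IGF2BP1 RIP and input alone, 4 of the 8 genes were called (Sall4, Sox3 and Nanos3 higher, Dazl lower), where 36.1% of all tested genes were called, 17% higher and 19.1% lower. The same 4 were called with either single IgG library left out, where 34% of all tested genes were called each time. A model of the pull-downs alone called 0 of the 8 in IGF2BP1 RIP against IgG RIP, where 1.23% of all tested genes were called, 0.317% higher and 0.916% lower. Without IgG replicate 1, 5 of the 8 were called in that comparison (Dazl, Dppa4, Lin28a and Nanos3 higher, Zbtb16 lower), where 47% of all tested genes were called. Without IgG replicate 2 it was 2 of the 8 (Dppa4 and Lin28a, both higher), where 44.6% of all were called. In IgG RIP against input, 1 of the 8 (Dazl) was called in a model of those groups alone, where 2.29% of all tested genes were called, 1.09% higher and 1.2% lower. Without IgG replicate 1 it was 3 of the 8, where 46.4% of all were called, and without IgG replicate 2 it was 4 of the 8, where 43.4% were called.

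Levels of different genes were compared per length. For this the CPM of a gene was divided by its length index, a relative measure of transcript length taken from the ratio of deposited count to deposited FPKM, and multiplied by the median index of all tested genes. On this scale Dazl stood highest in every group, at 708 ± 45.9 in IGF2BP1 RIP, 613 ± 78.5 in IgG RIP and 974 ± 34.5 in input (SD, n = 2 each), above 98.6% of the tested genes in input. Nanos3, which was number 6 of the 8 by CPM in every group, was number 2 per length (number 3 in IgG RIP by FPKM scaled to its library total, behind Sall4), at 409 ± 58.5 in IGF2BP1 RIP, 307 ± 88.2 in IgG RIP and 313 ± 41.1 in input. In input Zbtb16 (232 ± 8.95 per length) and Sall4 (224 ± 10.8) followed with overlapping libraries, then Pou5f1 (188 ± 11.5) and Lin28a (177 ± 7.18), which also overlapped. Sox3 (95.5 ± 2.58 per length) and Dppa4 (41.6 ± 3.64) came last and overlapped with no neighbour. In IGF2BP1 RIP Sall4 lay above Zbtb16 without overlap, at 310.1 and 327 against 240.5 and 248 per length. In IgG RIP Nanos3 overlapped both Sall4 and Zbtb16, and Sall4 lay above Zbtb16 with no overlap. Overlap here counts the spread of libraries only, with 1 length index per gene. The ratio behind this index ran from 8.48 to 13.6 between libraries for Sall4 and varied for Pou5f1 and Lin28a too. Their places per length are uncertain to that extent.

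The deposited FPKM values did not always run with the deposited counts. The ratio of count to FPKM was nearly constant for Zbtb16, from 18.2 to 18.3, and for Dazl, from 10.1 to 10.3. For Pou5f1 it was 2.64 and 2.13 for IGF2BP1 RIP, 4.10 and 4.42 for IgG RIP, with 3.01 and 2.88 for input. The IgG RIP libraries thus had the highest ratio and the IGF2BP1 RIP libraries the lowest, without overlap. For Lin28a it was 10.1 and 9.99 for IGF2BP1 RIP, 7.65 and 8.0 for IgG RIP, with 11.0 and 12.4 for input. Sall4 varied within groups, at 9.98 and 10.3 for IGF2BP1 RIP, 8.48 and 11.1 for IgG RIP, with 13.6 and 10.6 for input.

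On FPKM centred on the median of each library, Pou5f1 was 1.24 (log2 of FPKM + 0.1) higher in IGF2BP1 RIP than in IgG RIP and passed the test (limma adjusted p = 0.0456; the alternatives reached 0.778), against 0.29 on fragments. Lin28a in IgG RIP against input was 0.26 on centred FPKM (limma adjusted p = 0.267), against -0.21 on fragments. Which transcripts of these genes were present was not analysed here.

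**Figure D3:**
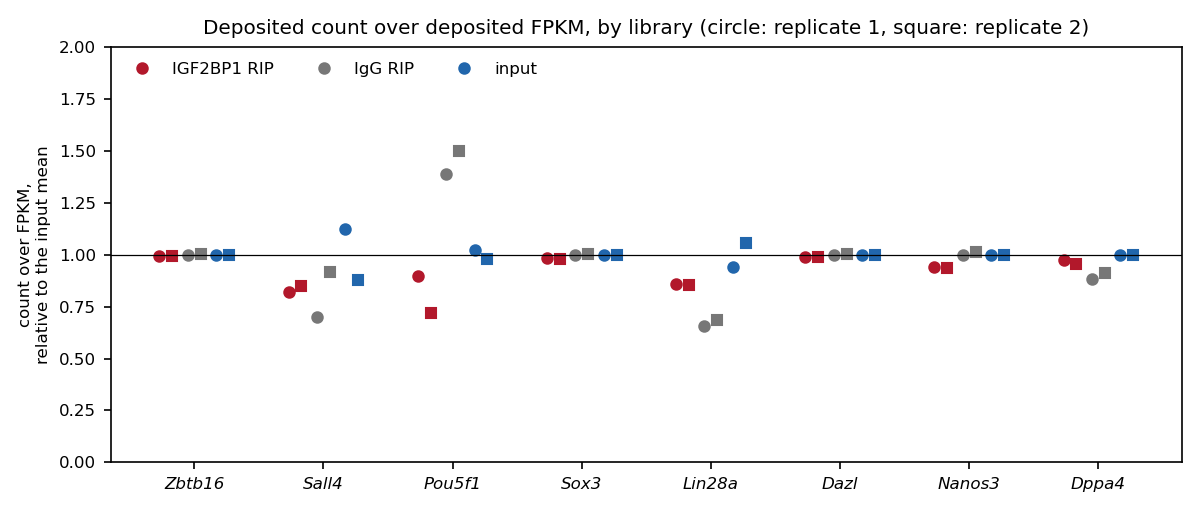
Deposited count over deposited FPKM of each gene and library, divided by the mean of the 2 input libraries (vertical axis, no unit), with red for IGF2BP1 RIP, grey for IgG RIP and blue for input. The ratio lies near 1 for Zbtb16, Sox3, Dazl and Nanos3 and varies between libraries for Sall4, Pou5f1 and Lin28a.

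Other genes of the same cells were taken from a list of 31 genes of undifferentiated spermatogonia, of which 30 were tested. Of all tested genes, 3.29% were higher and 3.78% lower in IGF2BP1 RIP against IgG RIP. Of the 30, 4 were higher, 0 lower and 26 not called, with a median log2 fold change of 0.15. The 4 were Epcam, a cell adhesion molecule (434 ± 19.3 CPM in IGF2BP1 RIP against 247 ± 38.0 in IgG RIP, log2 fold change 0.81 ± 0.12, edgeR adjusted p = 0.0114), the GDNF receptor Ret (0.44), the GDNF-responsive factor Etv5 (0.53) and the adhesion molecule Mcam (0.42). None of the 30 was called by edgeR in a model of these 2 groups alone, where 0.317% of all tested genes were higher and 0.916% lower. DESeq2 on all 6 libraries called 5 higher and 0 lower. Among the 9536 genes to which it gave an adjusted p, it called 337 higher and 442 lower. At an unadjusted p under 0.05 in edgeR on all 6 libraries, 9 of the 30 passed, against 25.3% of all tested genes. Against input, 2.21% of all tested genes were higher in IGF2BP1 RIP and 3.76% lower. Of the 30, 5 were higher and 0 lower, with a median of 0.31. The 5 were Etv5 (0.73), Mcam (0.64), Ret (0.51), Sohlh2, a transcription factor of early differentiation (0.65), and Glis3, a zinc finger factor (0.56). In a model of IGF2BP1 RIP and input alone 10 of the 30 were higher and 3 lower, where 17% of all tested genes were higher and 19.1% lower. In IgG RIP against input Glis3 was higher too (0.68 ± 0.11, edgeR adjusted p = 0.0128) and 29 were not called, where 4.19% of all tested genes were higher and 4.9% lower. The Glis3 call was lost in a model of IgG RIP and input alone (edgeR adjusted p = 0.0503). Etv5 had 251 and 269 CPM for IGF2BP1 RIP, 175 and 186 CPM for IgG RIP, with 159 and 154 CPM for input. Its IGF2BP1 RIP libraries were above all other libraries, and so were those of Epcam, Ret, Mcam and Sohlh2. The same held for Pou5f1, Lin28a and Dppa4 among the 8, and for 13.9% of all tested genes.

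Of 25 other genes of pluripotent and early germ cells, 20 were tested. None of the 20 was called in any of the 3 comparisons by edgeR or by DESeq2. Of all tested genes edgeR called 5.97% to 9.09%. DESeq2 called 779 of the 9536 genes to which it gave an adjusted p in IGF2BP1 RIP against IgG RIP. Against input it called 834 of 6200 in IGF2BP1 RIP and 1051 of 7534 in IgG RIP. In IGF2BP1 RIP against IgG RIP the SE of the 20 ran from 0.12 (Trim71) to 1.18 (Dppa2), beside 0.09 for Sall4. A gene with a wide SE can go uncalled even if it differs. From 1 to 2 of the 20 had an unadjusted p under 0.05 in edgeR, against 20.8% to 26.6% of all tested genes. Their median log2 fold change was -0.16 in IGF2BP1 RIP against IgG RIP, 0.12 in IGF2BP1 RIP against input and -0.0014 in IgG RIP against input. In a model of IGF2BP1 RIP and input alone 2 of the 20 were higher and 1 lower, beside the same 17% and 19.1% of all tested genes.

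The third list held partners and relatives of the proteins these genes encode, with 28 of 31 tested. In IGF2BP1 RIP against IgG RIP 1 was higher and 2 lower, with a median of -0.13, where 3.29% of all tested genes were higher and 3.78% lower. Dazap1, whose protein binds DAZ family proteins, was higher at 131 ± 3.59 CPM in IGF2BP1 RIP against 76.6 ± 8.48 in IgG RIP (log2 fold change 0.78 ± 0.15, edgeR adjusted p = 0.0268). The histone chaperone Rbbp4 (-0.46) was among the lower. In a model of these 2 groups alone 0 of the 28 were higher and 1 lower, beside 0.317% and 0.916% of all tested genes. The calls of Dazap1 and Rbbp4 were lost there (edgeR adjusted p = 0.103 and 0.0961). Against input, 2 were higher and 2 lower in IGF2BP1 RIP, where 2.21% of all tested genes were higher and 3.76% lower. Chd4, an ATPase of the NuRD complex (0.57), was among the higher. The RNA-binding protein gene Ybx1 (-1.05) and the Polycomb gene Suz12 (-0.56) were the lower. The IGF2BP1 RIP libraries of Dazap1 and Chd4 were above all other libraries, as for 13.9% of all tested genes. In IgG RIP against input 5 were higher and 1 lower, where 4.19% of all tested genes were higher and 4.9% lower. Cnot1 (0.53), Rbbp4 (0.41) and Rbbp7 (0.50) were among the higher and Ybx1 (-1.04) was the lower. In a model of those groups alone 2 were higher and 1 lower, beside 1.09% and 1.2% of all tested genes. The calls of Rbbp4 and Rbbp7 were lost there (edgeR adjusted p = 0.0969 and 0.0968). Ybx1, like Dazl, was below input in all 4 pull-down libraries, at 603 and 616 CPM for IGF2BP1 RIP, 558 and 665 CPM for IgG RIP, with 1310 and 1207 CPM for input.

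**Figure D4:**
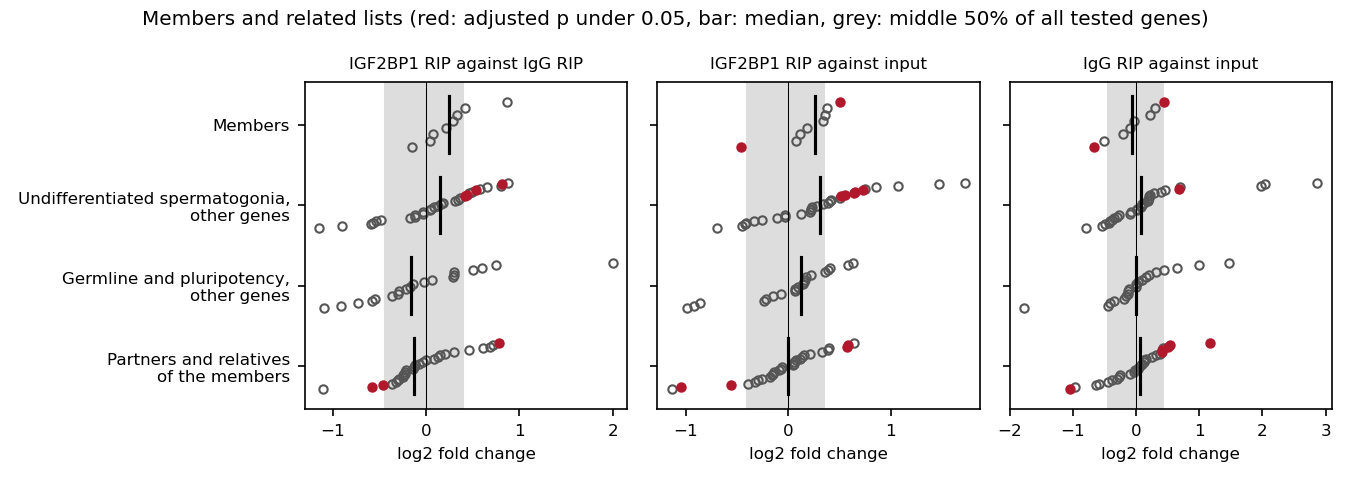
Log2 fold change (horizontal axis) of the 8 tested genes and of the tested genes of 3 related lists in the 3 comparisons, with red points for an adjusted p under 0.05, a black bar at each list's median and a grey band over the middle 50% of all tested genes. The medians of all 4 sets lie inside the band in every comparison.

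Among 4756 other genes with a mean of at least 50 CPM, those whose levels followed Dazl most closely over the 6 libraries were Cnbp, Cbx3 and Cdc42bpa, with a root mean square difference of 0.0185, 0.0495 and 0.0541 on the log2 scale after each gene's own mean was subtracted. Cnbp averaged 500.1 CPM in IGF2BP1 RIP, 435 in IgG RIP and 686 in input. Those closest to Zbtb16 were Mprip, Supt16 and Atf2, with differences of 0.0171, 0.0330 and 0.0385.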

How the data were processed

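The authors deposited 1 table with an estimated count and an FPKM value per gene and library. FastQC, cutadapt 1.9.3 and mm39 are named per the submitters' processing notes; reads were 150 bp paired ends. For the aligner and counter: not given in the sources used here. The deposited counts behave as fragments times 1 factor per library, since 92.8% to 94.4% of values above 0 are whole multiples of a single step (tolerance 0.01); each was divided by its step, then rounded. Positions are read as GRCm38, with 1 added to the file's start, because 99.909% of 20874 genes matched to RefSeq GRCm38 by gene number overlap there. Strand use is not stated, so fragments of Zbtb16 and Sall4 cannot be told from those of the overlapping Gm32280 and Gm14261.

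The test was the quasi-likelihood test of edgeR 4.0.16 (filterByExpr, TMM, 12053 genes, 1 model of 3 groups with 3 residual degrees of freedom, R 4.3.3), with Benjamini-Hochberg adjustment and a threshold of 0.05. It was tested on simulated data in which all 6 libraries had the same spread. The simulation cannot show how the test behaves where 1 group varies more, as IgG RIP does here. SE is the log2 fold change over the root of F. Alternatives used DESeq2 1.42.0 and, on FPKM, limma 3.58.1. All 10 genes are named, and of each related list up to 4 called genes per direction by adjusted p, except 1 that is not reported here. Genes and lists were chosen with earlier results of these data known.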

Additional observations from a re-analysis of the deposited data

How the results depend on the processing

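Of 383 fold changes of the 8 tested genes under other settings, 317 kept direction and side of the threshold, 27 lost a call in the same direction, 27 gained one in the same direction and 12 changed direction. Of these 12, 1 also lost its call (Dazl in IGF2BP1 RIP against input) and 1 gained one (Lin28a in IgG RIP against input), both on uncentred FPKM. DESeq2 gave Dppa4 no adjusted p in IGF2BP1 RIP against input. In IGF2BP1 RIP against IgG RIP, 0 of the 8 were called, and 1 (Pou5f1) on FPKM uncentred, centred, and centred with a pseudocount of 1. Of all 12053 tested genes, 323, 287 and 303 were called on these FPKM settings, in that order. In IGF2BP1 RIP against input 2 of the 8 were called (719 of all 12053 tested genes). The count was 4 with only those groups in the model (4094 of 11338) and 1 with the replicate number as a block (545 of 12053). It was 1 of 10 with no filter, Utf1 and Prdm14 included (608 of 17211), and 1 on deposited counts rounded (735 of 12052). On uncentred FPKM it was 7, where 3348 of all 12053 tested genes were called, 3281 of them higher. On centred FPKM it was 0 (103 of all), and also with a pseudocount of 1 (90 of all). In IgG RIP against input 2 of the 8 were called (1096 of all 12053 tested genes). The count was 1 with only those groups (261 of 11402) and 1 with the block (823 of 12053). On uncentred FPKM it was 4 (3025 of all tested genes, 2871 of them higher). On centred FPKM it was 1 (409 of all), and 0 with a pseudocount of 1 (433 of all). The block ended the calls of Dazl in IGF2BP1 RIP against input and of Sall4 in IgG RIP against input. Libraries with the same replicate number did not deviate together (correlation of same-numbered deviations from -0.003 to 0.012). This cannot show whether they came from the same culture. Leaving out 1 library gave 0 to 5 calls in IGF2BP1 RIP against IgG RIP, 0 to 4 in IGF2BP1 RIP against input and 0 to 4 in IgG RIP against input; a lone library is assumed to vary like the other groups.

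Directions changed as follows, and the cause was not tested. On uncentred FPKM, Zbtb16 was 0.0058 in IGF2BP1 RIP against IgG RIP, Dazl 0.36 in IGF2BP1 RIP against input, and in IgG RIP against input Pou5f1 was 0.029, Lin28a 1.02, Nanos3 0.60 and Dppa4 0.30; there the median of all genes moved to 0.15, 0.81 and 0.64 in the 3 comparisons. Lin28a in IgG RIP against input was 0.26 on centred FPKM and 0.31 with a pseudocount of 1. Without 1 library, Sox3 in IGF2BP1 RIP against IgG RIP ran from -0.029 to 0.11, and Nanos3 in IgG RIP against input from -0.34 to 0.24. Over all tested genes the calls, 852, 719 and 1096 in the 3 comparisons, ran over the alternatives from 46 to 5661, from 16 to 4100 and from 0 to 5590. By FPKM scaled to its library total, the order per length changed places between Zbtb16 and Pou5f1 in IGF2BP1 RIP, and between Nanos3 and Sall4 and between Pou5f1 and Lin28a in IgG RIP. Depth limits Utf1 and Prdm14, and Dppa4 rests on 332 fragments in all.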
